A study of Mus musculus with 12 samples.

Results

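The genes described here are 10 cyclic nucleotide phosphodiesterases, Pde8a, Pde8b, Pde1a, Pde4b, Pde4d, Pde7a, Pde7b, Pde9a, Pde10a and Pde2a, taken by name from the 56791 gene names of the deposited table. The set was chosen by the FPKM values of the same genotype comparison, in which Pde8a had been seen to be lower, and its relatives were added by name. The difference between genotypes is therefore given for all 10 as a description, without a test. RNA was sequenced from hippocampal astrocytes of adult naive male mice, sorted by fluorescence with an antibody to the astrocyte surface antigen ACSA-2, in 12 libraries. Control mice, labelled Ctrl, had the genotype Tnfrsf1bfl/fl, a floxed gene for the TNF receptor TNFR2 without a recombinase (A1, A2 and A8). Knockout mice, labelled cKO, had the genotype GfapcreERT2:Tnfrsf1bfl/fl, in which an inducible Cre under the Gfap promoter acts on the same floxed gene (A4, A9 and A10). The Gfap promoter is also active in the neural stem cells of the hippocampus, so the recombinase is not limited to mature astrocytes. Each A number has an S1 and an S2 library, and the labels define neither letter. S1 and S2 were averaged, which gives 3 units of each genotype.

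Cyclic AMP and cyclic GMP are second messengers made by adenylyl and guanylyl cyclases and removed by phosphodiesterases, which cut them to AMP and GMP. In astrocytes, cyclic AMP rises when noradrenaline, adenosine and other ligands act on receptors coupled to the G protein Gs, and it acts through protein kinase A, the exchange factor Epac and the transcription factor CREB. The PDE4, PDE7 and PDE8 enzymes act on cyclic AMP, PDE9 acts on cyclic GMP, and PDE1, PDE2 and PDE10 act on both. PDE8A and PDE8B are high-affinity enzymes for cyclic AMP that are insensitive to the general inhibitor IBMX.

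The promoter windows of 4 members whose levels are contrasted below are printed to show a start region of Pde8a and of each relative it is set beside. Each is the 250 bases before the most upstream RefSeq start on GRCm38.p6, written 5′ to 3′ on the strand of the gene. Capitals mark TGACG or its reverse complement, the core of the element that CREB binds. The windows lie at chr7:81213015-81213264 on the plus strand for Pde8a, chr13:95250337-95250586 on the minus strand for Pde8b, chr2:80129413-80129662 on the minus strand for Pde1a and chr4:102421305-102421554 on the plus strand for Pde4b. These positions do not line up with the deposited gene coordinates given below. The Pde4b window falls within the deposited span of that gene, 101944740 to 102464456, so its start may be internal to the gene.
Pde8a: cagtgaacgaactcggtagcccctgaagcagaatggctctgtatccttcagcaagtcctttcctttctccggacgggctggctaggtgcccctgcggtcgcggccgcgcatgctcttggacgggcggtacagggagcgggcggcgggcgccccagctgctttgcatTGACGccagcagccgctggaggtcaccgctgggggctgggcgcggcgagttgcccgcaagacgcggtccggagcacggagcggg
Pde8b: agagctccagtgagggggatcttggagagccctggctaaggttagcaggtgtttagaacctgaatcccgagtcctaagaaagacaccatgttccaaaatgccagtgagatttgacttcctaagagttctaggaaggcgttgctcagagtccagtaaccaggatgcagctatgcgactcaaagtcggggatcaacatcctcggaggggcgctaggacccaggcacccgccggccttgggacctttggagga
Pde1a: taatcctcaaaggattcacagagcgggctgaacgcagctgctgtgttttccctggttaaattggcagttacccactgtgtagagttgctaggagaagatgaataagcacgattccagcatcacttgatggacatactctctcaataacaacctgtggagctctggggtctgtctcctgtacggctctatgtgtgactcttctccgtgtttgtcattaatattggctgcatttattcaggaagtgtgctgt
Pde4b: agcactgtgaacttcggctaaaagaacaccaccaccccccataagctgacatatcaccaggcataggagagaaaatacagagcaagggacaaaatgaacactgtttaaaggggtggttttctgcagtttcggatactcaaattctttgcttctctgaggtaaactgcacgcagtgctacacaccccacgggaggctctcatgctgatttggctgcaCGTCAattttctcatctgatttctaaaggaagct

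The Pde8a window was rich in G and C (68.8%) and held 27 CpG dinucleotides. The Pde8b window had 54.4% G and C and 8 CpG, and the Pde1a and Pde4b windows had 46.0% each and 5 CpG each. A further Pde8b start, with its window at chr13:95223051-95223300, had 77.6% G and C and 32 CpG, so the contrast holds only for the windows printed. Across 32851 windows of the same length in the RefSeq table the medians were 52.4% and 6 CpG. TGACG, searched on both strands, was present once in the Pde8a window, beginning 84 bases before the start, and once in the Pde4b window, beginning 34 bases before the start. It was not found in the windows printed for Pde8b and Pde1a, but a window of another Pde1a start, chr2:80038903-80039152, held it 166 bases before that start. So 3 of the 8 matched members had it in some window, and 17.8% of all windows hold it. The full palindrome TGACGTCA, which contains TGACG, was in none of the 23 windows of the members and in 1.55% of all windows. The RefSeq table matched 8 of the 10 members, all except Pde7a and Pde9a.

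Recovered depth was 17311872 to 31499016 reads in the Ctrl libraries and 17451195 to 35323322 in the cKO libraries. Across genes, the S1 and S2 libraries of an A number correlated at 0.980 to 0.984, and libraries of different A numbers at 0.788 to 0.896. The ablated gene Tnfrsf1b did not check the labels. It was at 0 reads in 9 libraries and at 4 reads in 1 Ctrl library (A1 S1). Both libraries labelled cKO A4 held it, at 10 and 22 reads. Reads summed over the whole gene do not show whether its floxed part was removed, so they do not contradict that label. The microglia markers summed to 34.5 FPKM in A4 and to 14.0 to 25.4 FPKM in the other units. The part of microglia in these reads was not tested. Without A4 the Pde8a difference given below was -1.66. Ctrl A8 stood apart from the other units on the first principal component (75.6, against -43.3 to 17.7). The 10 astrocyte markers, among them Aldh1l1, Aqp4 and Slc1a3, were all above the filter and summed to 3663 to 4360 FPKM in Ctrl and 4282 to 5158 FPKM in cKO by unit. Their log2 differences, cKO minus Ctrl, were all positive, from 0.11 to 0.59 with a median of 0.22. The 12 oligodendrocyte markers were also all above the filter and summed to 1097 to 2354 FPKM in Ctrl and 313 to 753 FPKM in cKO.

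FPKM scales counts by gene length and library size, so levels can be set beside each other between genes. In the Ctrl units the members ran in the order Pde8b, Pde8a, Pde4b, Pde9a, Pde7a, Pde7b, Pde4d, Pde2a, Pde10a and Pde1a. The first 3 could not be ordered, since their unit ranges overlapped, at 16.2 to 19.6 FPKM for Pde8b, 12.5 to 19.5 FPKM for Pde8a and 13.9 to 20.1 FPKM for Pde4b. Pde9a lay below all of them at 6.05 to 9.40 FPKM, apart from both neighbours. The ranges of Pde7a (2.89 to 4.87 FPKM) and Pde7b (1.61 to 2.99 FPKM) overlapped, although Pde7a was above Pde7b in 3 of 3 Ctrl units. Pde4d (1.204 to 1.41 FPKM) lay below Pde7b, and it could not be ordered against Pde2a. Pde2a, Pde10a and Pde1a, between 0.492 and 1.56 FPKM in the Ctrl units, overlapped in turn. In the cKO units Pde8a came at rank 4, behind Pde8b, Pde4b and Pde9a.

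**Figure D1:**
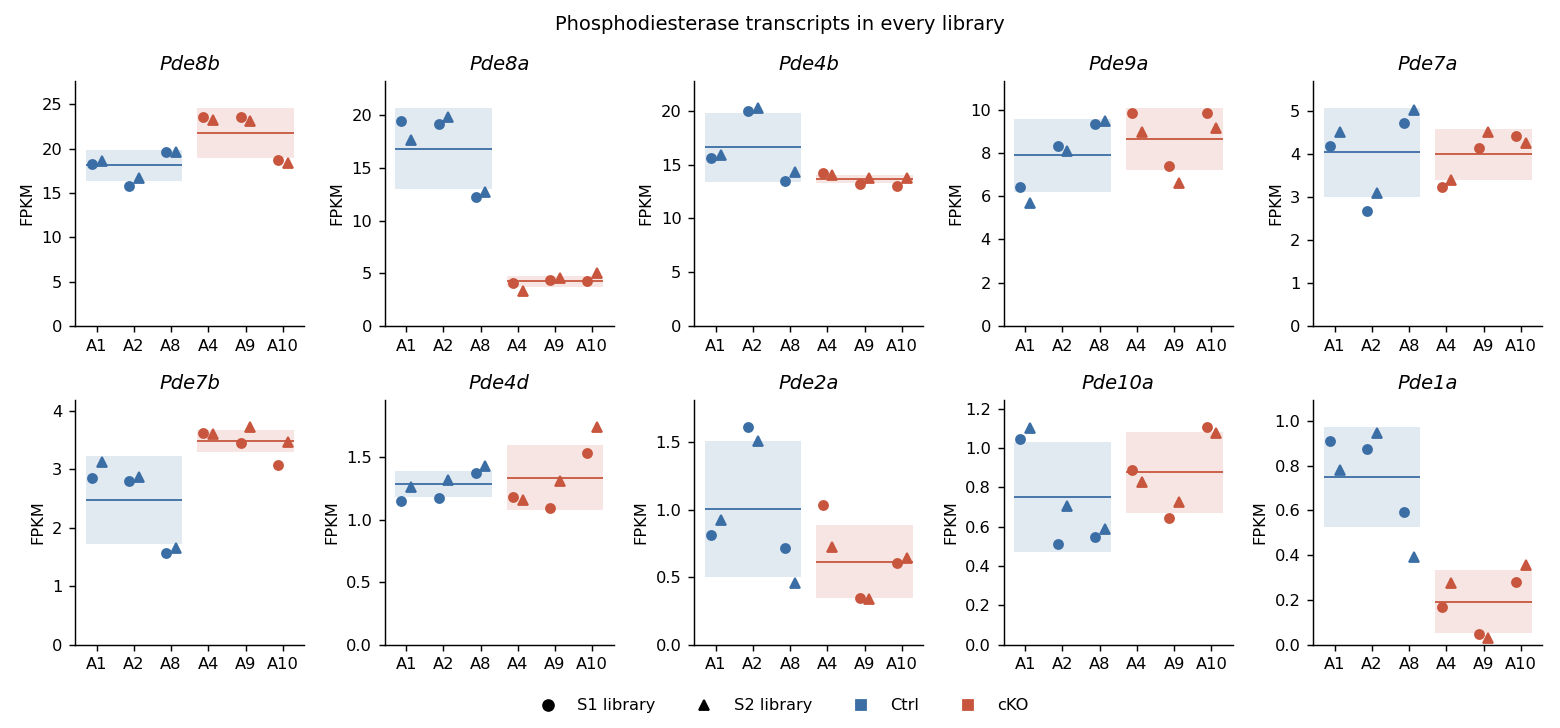
FPKM (linear axis from 0) of each member in every library, by A number; circles are S1 and triangles S2, blue is Ctrl and red cKO, and the line and band are the mean and SD of 3 units. The 6 cKO libraries of Pde8a sit between 3.30 and 5.06 FPKM and the 6 Ctrl libraries between 12.2 and 19.8 FPKM, while most other members overlap.

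Pde8a (ENSMUSG00000025584) lies on chromosome 7, plus strand, from 80863344 to 80984281 in the deposited coordinates, with 24 merged exons and an exonic length of 4045 bases. Its level in the Ctrl libraries was 19.5 and 17.7 FPKM in A1, 19.2 and 19.8 FPKM in A2, and 12.2 and 12.7 FPKM in A8 (S1 and S2 in each case). In the cKO libraries it was 4.05 and 3.30 FPKM in A4, 4.35 and 4.55 FPKM in A9, and 4.24 and 5.06 FPKM in A10. Every cKO library lay below every Ctrl library, and A8 was the lowest of the Ctrl units. These values rest on 970 to 2254 reads in the Ctrl libraries and 307 to 596 reads in the cKO libraries, far above the floor of 3 reads.

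The mean Pde8a level was 16.9 ± 3.83 FPKM over the Ctrl units and 4.26 ± 0.513 FPKM over the cKO units (SD, n = 3 units each), so the cKO mean was 25.3% of the Ctrl mean, or 3.96-fold lower. On the log2(FPKM + 1) scale the difference was -1.75 (SE 0.20). Adding 1 before taking logs shrinks the differences of genes with low FPKM. Among the 17540 genes with a mean of at least 1 FPKM, 73 had a more negative difference. No gene of the 17540 passed a limma adjusted p of 0.05 (0.00%), and 1349 had an unadjusted p under 0.05 (7.69%). Leaving out each A number in turn gave Pde8a differences from -1.94 to -1.63.

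Pde8b, the closest relative of Pde8a, lies on chromosome 13 (minus strand, 95160962 to 95386844). Its unit levels were 18.4, 16.2 and 19.6 FPKM in Ctrl A1, A2 and A8, and 23.4, 23.4 and 18.6 FPKM in cKO A4, A9 and A10. A4 and A9 lay above every Ctrl unit, and A10 lay among them. The Ctrl mean was 18.1 ± 1.72 FPKM and the cKO mean 21.8 ± 2.79 FPKM (SD, n = 3 each), a log2 difference of 0.25 (SE 0.14), opposite in sign to that of Pde8a. The 10 astrocyte markers had a median difference of 0.22, and their part in the Pde8b difference was not tested. The antisense noncoding gene Gm48420, at a mean of 11.1 FPKM, shares 447 exonic bases with Pde8b, and reads there cannot be assigned to a strand because no source states that strand was used.

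The ratio of Pde8a to Pde8b within a unit removes any scaling of the library. It was 1.01 in A1, 1.202 in A2 and 0.635 in A8, against 0.157 in A4, 0.190 in A9 and 0.250 in A10. The highest cKO ratio was below the lowest Ctrl ratio. The sum of both genes was 32.1 to 37.0 FPKM in Ctrl and 23.2 to 27.8 FPKM in cKO, so every cKO sum lay below every Ctrl sum. Whether both transcripts come from the same cells was not tested.

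The PDE4 enzymes are the targets of rolipram and act on cyclic AMP alone. Pde4b (chromosome 4, 101944740 to 102464456) was 15.8, 20.1 and 13.9 FPKM in Ctrl A1, A2 and A8, and 14.1, 13.5 and 13.4 FPKM in cKO A4, A9 and A10. The groups overlapped because A8 lay between A4 and A9. The log2 difference was -0.25 (SE 0.16), and it was -0.11 without A2 and -0.08 with upper quartile scaling. Pde4d (chromosome 13, 108586482 to 110089995) was 1.204, 1.245 and 1.41 FPKM in Ctrl and 1.17, 1.203 and 1.64 FPKM in cKO in the same orders, and the groups overlapped, with A10 the highest unit. The log2 difference of Pde4d was 0.03, and -0.06 without A10.

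The PDE7 enzymes also act on cyclic AMP alone. Pde7b (chromosome 10, 20273750 to 20600824) was 2.99, 2.83 and 1.61 FPKM in Ctrl A1, A2 and A8, and 3.61, 3.59 and 3.27 FPKM in cKO A4, A9 and A10. Every cKO unit lay above every Ctrl unit, with A8 the lowest. The library values overlapped, since A1 S2 was at 3.13 FPKM and A10 S1 at 3.08 FPKM. The log2 difference was 0.39 (SE 0.23), and without A8 it was 0.20. Pde7a (chromosome 3, 19277272 to 19365486) ran from 2.89 to 4.87 FPKM in Ctrl and from 3.31 to 4.35 FPKM in cKO, with a log2 difference of 0.003 that ran from -0.17 (without A2) to 0.13 (without A8) when an A number was left out. The Pde7a groups overlapped fully, and 48 exonic bases are shared with the antisense gene Gm16093.

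PDE9A has a high affinity for cyclic GMP. Pde9a (chromosome 17, 31605184 to 31695284) was 6.05, 8.19 and 9.40 FPKM in Ctrl A1, A2 and A8 and 9.42, 6.98 and 9.49 FPKM in cKO A4, A9 and A10. The groups overlapped, and the log2 difference was 0.12 (SE 0.20), which was -0.03 without A1.

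Pde1a, Pde2a and Pde10a, which act on both messengers, were below the filter of a mean of 1 FPKM and so outside the fit across genes. PDE1 enzymes are switched on by calcium and calmodulin. Pde1a (chromosome 2, 79664797 to 79959802) was 0.844, 0.911 and 0.492 FPKM in Ctrl A1, A2 and A8, and 0.220, 0.0386 and 0.316 FPKM in cKO A4, A9 and A10. Every cKO unit lay below every Ctrl unit, and every cKO library, at 5 to 62 reads, had a lower FPKM than every Ctrl library, at 70 to 160 reads. The Pde1a cKO mean was 25.5% of the Ctrl mean, beside 25.3% for Pde8a.

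PDE2A is an enzyme that cyclic GMP stimulates. Pde2a (chromosome 7, 101070898 to 101162034) ran from 0.584 to 1.56 FPKM in Ctrl and from 0.342 to 0.879 FPKM in cKO, and the groups overlapped. Its values are uncertain, because it shares 3955 of 6149 exonic bases with the gene model Gm45837 on the same strand. PDE10A is best known from the medium spiny neurons of the striatum. Pde10a (chromosome 17, 8744204 to 9205480) ran from 0.567 to 1.076 FPKM in Ctrl and from 0.682 to 1.09 FPKM in cKO, also with overlap.

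Of the 10 members, the units of 2 (Pde8a and Pde1a) were lower in cKO without overlap, those of 1 (Pde7b) were higher, and those of 7 overlapped. Across the 17540 tested genes 7.22% were lower without overlap and 5.76% higher. Of the 7 members tested, 5 had a positive difference, and their median was 0.03 on the log2 scale, against -0.006 over all tested genes. The remaining 6 tested members lay between -0.25 and 0.39, and the next most negative tested member after Pde8a was Pde4b. Without A8, Pde4b was also lower without overlap and Pde8b higher, which made 5 members, in a setting where 33.4% of all tested genes did not overlap.

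**Figure D2:**
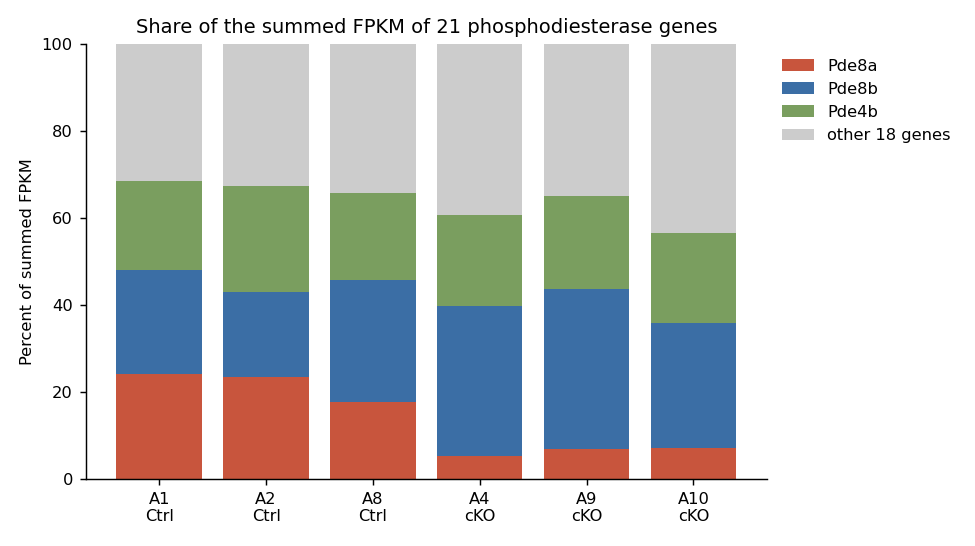
Share (percent) of the summed FPKM of 21 cyclic nucleotide phosphodiesterase genes taken by Pde8a, Pde8b, Pde4b and the other 18 genes in each unit. Pde8a takes 17.8% to 24.1% in the Ctrl units and 5.41% to 7.19% in the cKO units.

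The family was completed with the other 11 genes of catalytic subunits (Pde1b, Pde1c, Pde3a, Pde3b, Pde4a, Pde4c, Pde5a, Pde6a, Pde6b, Pde6c and Pde11a). The 10 members held 88.8% to 92.8% of the summed FPKM of all 21. Of that sum Pde8a took 21.8 ± 3.48% in the Ctrl units and 6.54 ± 0.980% in the cKO units (SD, n = 3 each). Pde8b took 23.9 ± 4.24% in Ctrl and 33.3 ± 4.17% in cKO, and Pde4b took 21.5 ± 2.38% and 20.9 ± 0.286%. Since Pde8a is part of the sum, a lower Pde8a level raises the share of every other gene. Of the sum without Pde8a, Pde8b took 31.5%, 25.6% and 34.2% in Ctrl A1, A2 and A8 and 36.4%, 39.6% and 30.9% in cKO A4, A9 and A10, and the groups overlapped. The summed FPKM of the family was 70.0 to 82.9 in Ctrl and 63.4 to 68.0 in cKO. Without Pde8a the sums overlapped, at 57.5 to 63.4 FPKM in Ctrl and 59.0 to 64.3 FPKM in cKO.

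Among those 11 relatives, 3 passed the filter and 8 did not. The 3 were Pde4a (2.09 ± 0.607 FPKM in Ctrl and 2.32 ± 0.372 FPKM in cKO), Pde1b (1.39 ± 0.646 and 1.27 ± 0.584 FPKM) and Pde1c (1.27 ± 0.548 and 0.809 ± 0.323 FPKM; SD, n = 3 each). None of the 3 had an unadjusted p under 0.05, and their lowest limma adjusted p was 0.913. The photoreceptor enzymes Pde6a, Pde6b and Pde6c and the dual enzyme Pde11a were at most 0.426 FPKM in every unit.

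Cnp and Mbp, genes of myelin-forming oligodendrocytes, were set beside Pde8a in each unit. Cnp was 143, 154 and 89.5 FPKM in Ctrl A1, A2 and A8, and 37.0, 39.4 and 64.8 FPKM in cKO A4, A9 and A10. Mbp was 88.9, 115 and 62.2 FPKM in the Ctrl units and 20.52, 24.0 and 40.8 FPKM in the cKO units. All 3 genes had the same order of units: A2, A1, A8, A10, A9 and A4, from highest to lowest. In bulk RNA, fewer cells of a type and less RNA per cell cannot be told apart.

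**Figure D3:**
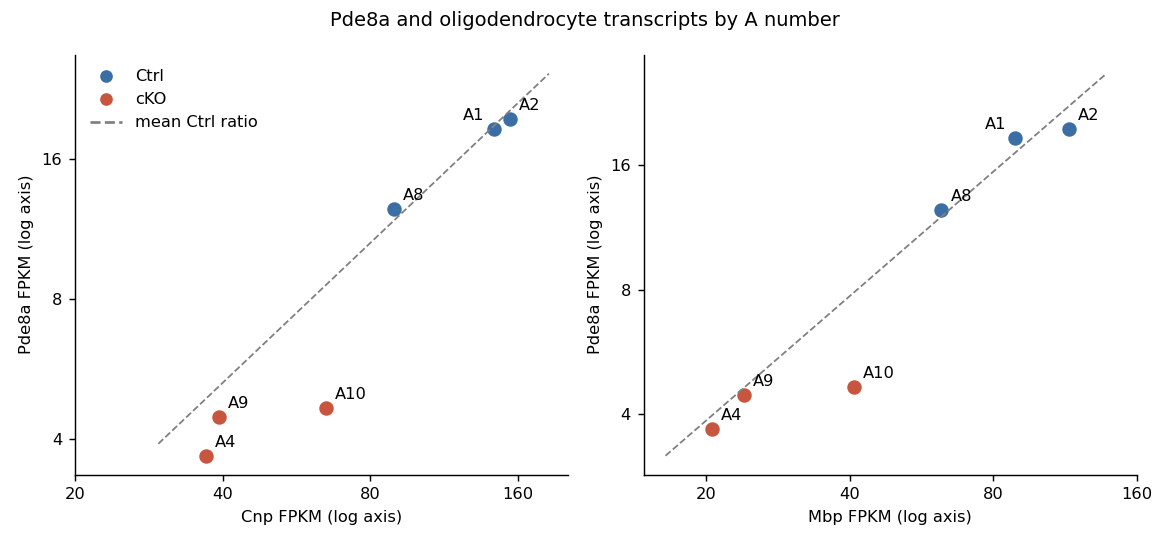
Pde8a FPKM against Cnp FPKM (left) and Mbp FPKM (right), both axes logarithmic, 1 point for each A number (mean of S1 and S2), Ctrl blue and cKO red; the dashed line is the mean Ctrl ratio. The units keep 1 order for all 3 genes, and A10 lies farthest below the line.

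The amounts moved less evenly than the order. For each 100 FPKM of Cnp there were 12.99, 12.7 and 13.9 FPKM of Pde8a in Ctrl A1, A2 and A8, and 9.95, 11.3 and 7.17 FPKM in cKO A4, A9 and A10. The Ctrl ratios lay close together although Cnp itself ran from 89.5 to 154 FPKM among them, and all cKO ratios lay below them. For each 100 FPKM of Mbp the Pde8a level was 20.9, 17.0 and 20.04 FPKM in Ctrl and 17.9, 18.5 and 11.4 FPKM in cKO in the same orders, and here the groups overlapped. A10 had the lowest ratio to both genes, with Cnp and Mbp above both other cKO units and Pde8a at 4.65 FPKM against 3.68 and 4.45 FPKM.

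The 12 oligodendrocyte markers were all lower in cKO by their means, with log2 differences from -2.37 (Cldn11) to -1.44 (Cnp) and a median of -1.75. The Pde8a difference of -1.75 lay in the middle of them, with 6 of the 12 more negative. Of the other members Pde1a was the nearest to that range, at -0.55, and with a pseudocount of 0.1 in place of 1 it was -1.65. No marker passed the limma adjusted p of 0.05, and 12 of 12 had an unadjusted p under 0.05 in the lower direction, beside 4.71% of all tested genes. The lowest adjusted p was 0.333 among the 10 markers other than Cnp and Mbp, which were picked together with the phosphodiesterases. Of 5 further genes of the oligodendrocyte lineage, 4 were tested, and they ran from -1.75 for Sox10 to -0.13 for Olig2. The precursor gene Cspg4 was at -0.31 (SE 0.29), and the precursor gene Pdgfra was below the filter.

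**Figure D4:**
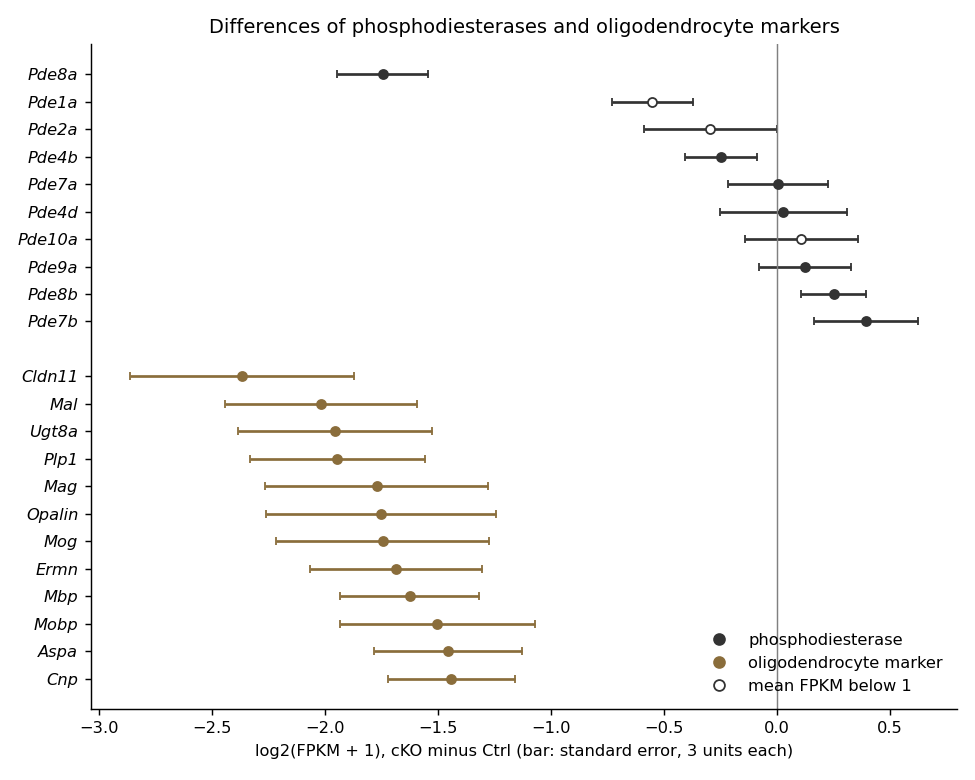
Difference of log2(FPKM + 1), cKO minus Ctrl, with its standard error (3 units each), for the 10 phosphodiesterases and the 12 oligodendrocyte markers; open circles are genes with a mean below 1 FPKM. Pde8a, at -1.75, lies among the oligodendrocyte markers, and the other phosphodiesterases lie between -0.55 and 0.39.

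When the mean log2 level of the 12 markers was added to the fit as a covariate, the Pde8a difference was -1.12 (SE 0.31), against -1.75 (SE 0.20) without it. In that fit the difference of Pde8b was -0.15 (SE 0.24), that of Pde4b -0.02 (SE 0.32) and that of Pde7b 0.74 (SE 0.47). The marker score did not overlap between genotypes (5.57 to 6.63 in Ctrl, 3.90 to 5.20 in cKO), so with 6 units this fit separates genotype and marker level only through the spread within each group. The part of the oligodendrocyte markers in the Pde8a difference was not otherwise tested. Of the other cell types, the neuron markers summed to 8.2 to 9.7 FPKM in Ctrl and 3.8 to 8.0 FPKM in cKO, and the microglia markers to 14.0 to 19.1 FPKM and 20.4 to 34.5 FPKM. The ependymal markers summed to 55.3 to 230 FPKM in Ctrl and 47.8 to 154 FPKM in cKO. In the same order, the mural cell markers summed to 48.5 to 80.3 and 66.8 to 88.8 FPKM. The endothelial markers summed to 4.35 to 41.8 and 3.47 to 28.8 FPKM. The part of these cell types in the result was not tested.

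The genes with patterns most like Pde8a were ranked by Pearson r of log2(FPKM + 1) over the 6 units, among 15923 tested genes of at least 200 bases that are no member. The first 5 were Tmeff1 (r = 0.993), Nkain2 (0.992), Rell1 (0.992), Nmral1 (0.989) and Unc5b (0.988). Tmeff1 was 20.3 ± 5.39 FPKM in Ctrl and 6.88 ± 0.847 FPKM in cKO, and Unc5b, a netrin receptor, was 14.2 ± 5.66 FPKM and 2.60 ± 0.580 FPKM (SD, n = 3 each). The 6 points fall into 2 genotype clusters, so r largely reflects the step between them and is given as a description. By the same measure the 12 oligodendrocyte markers had r from 0.902 to 0.963, and 413 genes (2.59%) exceeded 0.9. Of the other members, Pde1a had r = 0.929 and Pde4b 0.744, and Pde8b had the most negative value, -0.782.

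The wider pathway was read from 10 lists, which hold the 11 relatives above together with cyclases, kinases, anchoring proteins, G proteins and CREB genes. Of 94 listed genes in the table, 59 passed the filter. In the genotype comparison 0 of the 59 passed a limma adjusted p of 0.05 (lowest 0.380). Their median difference was -0.04, against -0.006 over all tested genes. At an unadjusted p under 0.05 there were 2 higher (Adcy2 and Prkaca) and 4 lower (Gnai1, Hcn2, Adcy5 and Nr4a2), beside 2.98% higher and 4.71% lower of all tested genes. The units of 8 pathway genes (13.6%) were higher in cKO without overlap, beside 5.76% of all tested genes, and those of 3 (5.08%) were lower, beside 7.22%. Of the 10 astrocyte markers above, the units of 2 were higher without overlap and those of 0 lower. In the fit that includes the oligodendrocyte score, Gnai1 differed by -0.11 (SE 0.41) and Hcn2 by 0.65 (SE 0.32). Adcy5 differed by 0.16 (SE 0.46), Nr4a2 by 0.07 (SE 0.47) and Pde8a by -1.12 (SE 0.31). The 2 higher genes stayed above 0 in it, Adcy2 at 0.42 (SE 0.23) and Prkaca at 0.60 (SE 0.25). That fit separates genotype and marker level only through the spread within each group, and the part of the markers was not otherwise tested.

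**Figure D5:**
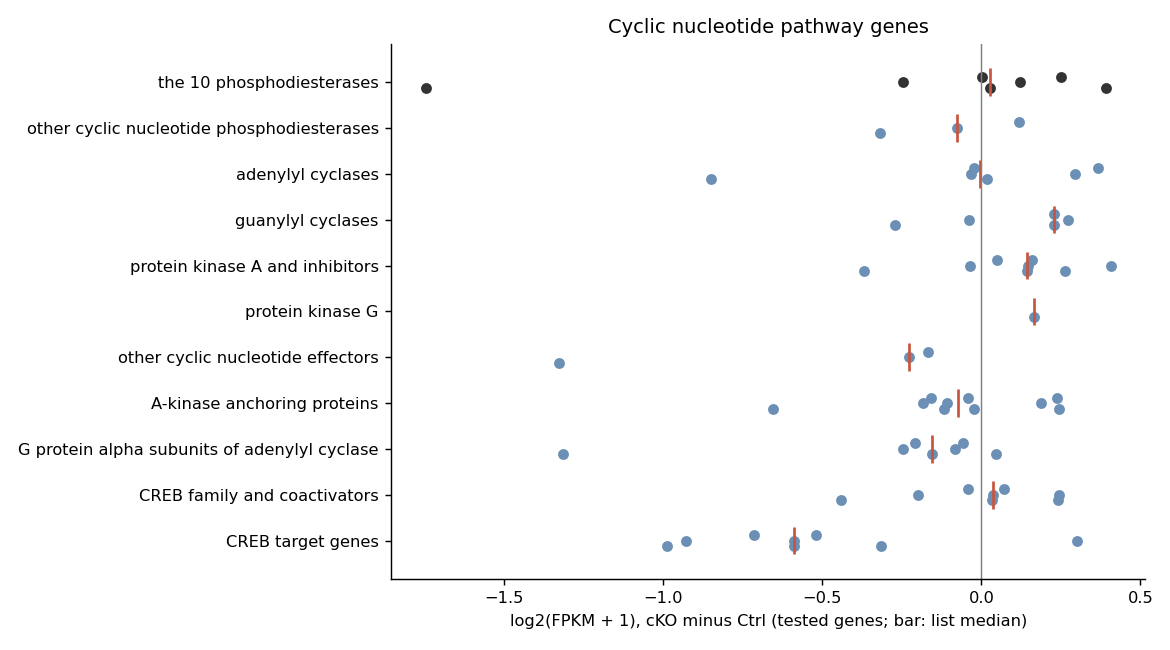
Difference of log2(FPKM + 1), cKO minus Ctrl, of each tested gene of the 10 phosphodiesterases and of 10 pathway lists (points), with the median of each list (bar). Pde8a is the most negative point, and the CREB target genes have the lowest median, -0.59.

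Adenylyl cyclases make cyclic AMP. Of 10, 6 were tested, and 0 passed the adjusted threshold. Adcy2 was 27.8 ± 2.42 FPKM in Ctrl and 34.2 ± 1.31 FPKM in cKO (log2 difference 0.29, limma adjusted p = 0.618). Adcy5 was 3.47 ± 1.03 FPKM and 1.502 ± 0.758 FPKM (-0.85, limma adjusted p = 0.590). The G protein subunit Gnai1, which inhibits the cyclases, was 25.8, 21.2 and 11.99 FPKM in Ctrl A1, A2 and A8 and 6.41, 5.11 and 10.1 FPKM in cKO A4, A9 and A10 (-1.31, limma adjusted p = 0.380). The other named subunit, Gnai3, differed by -0.21 (limma adjusted p = 0.819), and 0 of 7 subunits passed.

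Guanylyl cyclases make cyclic GMP. Of 9, 5 were tested and 0 passed. Gucy1a1 and Gucy1b1, subunit genes of the nitric oxide receptor, each had a difference of 0.23 (limma adjusted p = 0.809 and 0.845). Another subunit gene of that receptor, Gucy1a2, went the other way, at -0.27 (limma adjusted p = 0.885).

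Protein kinase A is the main effector of cyclic AMP. Its catalytic subunit gene Prkaca was 16.1 ± 1.66 FPKM over the Ctrl units and 21.7 ± 1.45 FPKM over the cKO units (0.41, limma adjusted p = 0.4996), without overlap. The second catalytic gene, Prkacb, was 15.4 ± 2.11 FPKM in Ctrl and 11.7 ± 1.48 FPKM in cKO (-0.37, limma adjusted p = 0.650), with overlap. Of the 8 tested genes of this list 0 passed, and 6 had a positive difference. Prkg1, the only tested protein kinase G gene, differed by 0.17 (limma adjusted p = 0.969).

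Among the other effectors 3 of 15 were tested and 0 passed. Rapgef3, which encodes Epac1, was 31.3 ± 2.69 FPKM in Ctrl and 26.8 ± 3.95 FPKM in cKO (-0.23, limma adjusted p = 0.809). The channel gene Hcn2 was 22.0, 29.3 and 13.2 FPKM in Ctrl A1, A2 and A8 and 4.13, 6.54 and 15.3 FPKM in cKO A4, A9 and A10 (-1.33, limma adjusted p = 0.567). Of 10 tested A-kinase anchoring proteins, which hold the kinase at its sites, 0 passed, with Akap9 at 0.24 (limma adjusted p = 0.747) and Akap14 at -0.66 (0.796).

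CREB and its relatives switch on genes when cyclic AMP rises. Of 8 genes of the CREB family and its coactivators 0 passed, with Crem at -0.44 (limma adjusted p = 0.763) and Crtc3 at 0.24 (0.775). The 8 tested CREB target genes had a median of -0.59, with 7 below 0, where 50.8% of all tested genes were below 0, and 0 passed the adjusted threshold. The units of 1 of the 8 (Nr4a2) were lower in cKO without overlap, beside 7.22% of all tested genes, and the others overlapped. In the fit with the oligodendrocyte score, all 7 that had been below 0 were above 0. They ran from 0.07 (SE 0.47, Nr4a2) to 1.89 (SE 0.94, Sik1). The remaining gene, Ppargc1a, turned from 0.30 to -0.12 (SE 0.40). Over all 10 listed target genes the mean log2 level was 3.91, 4.03 and 2.99 in Ctrl A1, A2 and A8 and 3.32, 2.82 and 3.54 in cKO A4, A9 and A10. For the 5 ependymal markers it was 5.49, 5.40 and 3.53 in the Ctrl units and 4.51, 3.24 and 4.95 in the cKO units, with A1, A2 and A10 high and A9 lowest in both lists. The part of these markers, and that of cell sorting, in the CREB target levels was not tested. Nr4a2 was 5.87, 8.24 and 3.88 FPKM in Ctrl and 2.27, 1.61 and 3.71 FPKM in cKO in the usual orders (-0.99, limma adjusted p = 0.516). Per1 was 21.2 ± 2.50 FPKM and 14.96 ± 5.20 FPKM (-0.52, limma adjusted p = 0.681).

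S2 minus S1 is a contrast that the choice of the members did not use. The S2 libraries held 28096485 to 35323322 recovered reads and the S1 libraries 17311872 to 22025823. S2 was thus the deeper library in every A number, and the part of depth in this contrast was not tested. Of the 7 tested members 0 passed a limma adjusted p of 0.05 with the A number as a block (lowest 0.332, for Pde9a), beside 243 of 17540 genes (1.39%). Pde9a was lower in S2 in 5 of 6 A numbers by a mean of 0.09 on the log2 scale, and it was the only member with an unadjusted p under 0.05 (11.0% of all tested genes). The largest differences of Pde8a between S2 and S1 were -0.23 in A4 and 0.21 in A10, small beside the difference between genotypes. The interaction of genotype with S passed for 0 of the 7 members, with 0 of them at an unadjusted p under 0.05, beside 4.74% of all tested genes (831). It passed the limma adjusted threshold for 0 genes in all (0.00%).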

How the data were processed

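Values were FPKM, which the authors deposited as 1 table of 12 libraries with gene lengths and coordinates. Per the submitters' processing notes, FastQC, STAR, featureCounts and DESeq2 were used, with the builds mm10 and GRCm38 and no versions. Of 51948 genes matched to GENCODE M21 on GRCm38, 2.70% had the same start and end, and 0 of the 10 members did. Pde8a runs from 81213596 to 81334533 there. The deposited coordinates are therefore not those of that annotation, and they are given as deposited. The promoter windows are on GRCm38.p6 and cannot be placed on them directly. Per the labels' protocols, SMART-Seq V4 libraries were read as pairs of 125 bases.

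From the deposited FPKM, read totals were recovered from the steps between low values; 82.8% to 86.3% of genes above 0 came out within 0.02 of whole reads. Most of the whole low values (72.6% to 80.4% by library) were even numbers of reads. The 2 reads of a pair may thus often have been counted apart, and fragments may be fewer than the recovered reads given here. Floors of 3 reads cover counting error only. Rows sharing a symbol were summed. S1 and S2 were averaged on the log2(FPKM + 1) scale, the genes with a mean of at least 1 FPKM were kept (17540), and the genotype contrast was fitted by limma 3.58.1 under R 4.3.3 (eBayes with a variance trend, two-sided, Benjamini-Hochberg over all tested genes, threshold 0.05). S2 minus S1 was fitted over 12 libraries, blocked by A number, and its interaction with genotype on the 6 differences. Tables were made with Python 3.11.15. The fits were tested on simulated data. The labels do not say that A numbers are separate animals, so p-values measure the spread between these units only.

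The members and lists were chosen with earlier results of these data known. Named besides the members are Tnfrsf1b, Cnp and Mbp, the 2 tested genes of each pathway list with the smallest unadjusted p, the 3 most abundant other phosphodiesterases and the 5 genes most like Pde8a. Sox10, Olig2, Cspg4, Pdgfra, Cldn11, Sik1, Ppargc1a and Gucy1a2 were named after their values were seen. Alternatives changed the pseudocount, filter, scaling, variance trend, averaging, units and covariate, and used voom on recovered reads.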

Additional observations from a re-analysis of the deposited data

How the results depend on the processing

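The Pde8a difference of -1.75 stayed within the spread between units in 17 of 18 alternatives, from -1.97 (voom on recovered reads) to -1.60 (upper quartile scaling), and moved to -1.12 with the oligodendrocyte score as a covariate. Upper quartile scaling shifted the median of all genes from -0.006 to 0.13. For the other members 134 of 141 alternative values stayed within that spread; with a pseudocount of 0.1, Pde1a moved to -1.65 and Pde2a to -0.60, with upper quartile scaling Pde8b moved to 0.42, and under the covariate Pde8b moved to -0.15, Pde4b to -0.02, Pde4d to 0.17 and Pde7b to 0.74. The sign also turned under the covariate for Pde9a (-0.07) and Pde7a (-0.10). The count of 0 changed genes held in most alternatives, voom included. Leaving out an A number gave 0 to 1 (1 without A1). Treating A numbers as random effects over 12 libraries gave 112, and 80 with the replicate block added to that fit. Both fits take 1 correlation between the libraries of an A number for all genes (0.915 and 0.924). They enter 12 libraries although there are only 3 units of each genotype, so their counts do not rest on more units than the count of 0. The cause of the higher counts was not tested. In the labels the replicate numbers follow S1 and S2, so they link no Ctrl unit to a cKO unit. The smallest adjusted p ran from 0.00601 to 0.811. The number of members whose units do not overlap, 3, was 4 to 5 without each A number (5 without A8 and without A10), an alternative chosen after seeing the data in which groups of 2 overlap less. The count for S2 minus S1, 243, was 152 without a filter, 22 without the A number block, and 152 to 180 without each A number. More genes were tested without the filter, and fewer samples without an A number. The interaction count was 0 in all alternatives run. Pde1a, at 5 to 160 reads, is limited by depth.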
